A study of Homo sapiens with 9 samples.

Results

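The genes described here are those of the CD3 chains (*CD3D*, *CD3E*, *CD3G* and *CD247*), the coreceptors (*CD4*, *CD8A* and *CD8B*) and the T cell surface markers *CD2*, *CD5* and *CD7*. Every probe whose transcript accession belongs to one of these 10 genes was taken, which gave 13 of the 57176 probes on the array, or 10 of 19722 named genes. RNA came from ALL-SIL (ALLSIL in the labels), one established human T cell acute lymphoblastic leukemia (T-ALL) line, so that the samples stand for 1 leukemia in culture. All cells were electroporated, either with a control siRNA or with one of the *PHF6* siRNAs that the labels call siRNA1 and siRNA2, and which commercial product carries which name was not given in the sources used here. There were 3 biological replicates per group and 9 arrays, collected at 96 h according to most labels and at 72 h according to a free-text field. The question was whether lowering *PHF6*, a chromatin-associated gene that is often lost in T-ALL, changed the RNA level of these 10 genes. Surface protein was not measured on these arrays.

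The T cell receptor has no signaling tail of its own. It relies on the CD3 gamma, delta and epsilon chains and on the zeta chain encoded by *CD247*, whose cytoplasmic motifs are phosphorylated by LCK and then bound by ZAP70. CD4 and CD8 bind MHC molecules next to the receptor and bring LCK to it, CD2 and CD5 tune the signal, and CD7 is among the earliest surface proteins of the T lineage and is used to recognize T-ALL blasts.

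The targeted gene was measured first. The *PHF6* probe (A_23_P171385) had normalized log2 values of 11.07, 11.17 and 10.86 with control siRNA, 9.39, 9.69 and 9.12 with siRNA1, and 9.20, 9.28 and 9.14 with siRNA2 for replicates 1 to 3. Every siRNA array was below every control array. Its log2 fold change over both siRNAs was -1.73 (standard error 0.14, limma adjusted p = 0.00248), which left 30.2% of the control signal. Replicates 1 and 2 of each group lay on one slide and replicate 3 on another. On each array, 29694 to 33751 probes were well above background, and the median intensity was 41.25 to 55 over all probes and 23 to 27.5 over the negative control spots. Values of samples with the same replicate number deviated together, so limma was also fitted with a block for the replicate number, and both fits are given where they differ in their call.

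The identity of the cells was checked against marker genes. All 8 T lineage markers that could be matched (the CD3 chains, *CD2*, *CD5*, *CD7* and *LCK*) were well above background on all 9 arrays. Their summed linear level was 170300 to 200500 with control siRNA, 158900 to 180700 with siRNA1 and 162100 to 166300 with siRNA2. Of 6 B lineage markers, *CD79A* and *CD79B* were above background on all 9 arrays, *CD22* and *BLK* on none, and their sum was 5594 to 7647 with control siRNA, 4971 to 6062 with siRNA1 and 4564 to 5523 with siRNA2. Of 7 NK cell markers, 4 were above background on no array, among them *KLRD1* and *KLRF1*, and the sum was 230.9 to 279.1 with control siRNA, 177.4 to 243.5 with siRNA1 and 202.5 to 277 with siRNA2. The T and B lineage sums with siRNA2 lay below those of all control arrays, whereas the other sums overlapped with control. The brightest genes weigh most in a linear sum, here *CD3D* and *CD79A* (control means 16.70 and 12.55). Neither was called with the block (limma adjusted p = 0.545 and 0.133). Among these lists the fit with the replicate block called *CD7*, *CD79B* (log2 fold change -0.48, limma adjusted p = 0.0416, or 0.725 without the block) and *GNLY* (-0.56, adjusted p = 0.0242, or 0.591), all lower, where 1.21% of all genes were called lower with the block. *HBB* and the collagen genes *COL1A2* and *COL3A1* were above background on no array. The sums of the monocyte, erythroid and stromal lists were among those that overlapped, and the part of other cells in the results below was not tested.

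Of the 13 probes, 12 were tested because they were well above background on 3 arrays or more, and the third *CD8B* probe was not. For both siRNAs against control, limma without the block called 0 of the 12 at an adjusted p under 0.05. Of all tested probes, 0.00893% were called in that fit, which leaves out the pairing by replicate number. At an unadjusted p under 0.05 there were 3, those of *CD7*, *CD247* and *CD8A*, against 7.43% of all tested probes. With the replicate block 1 of 12 was called, *CD7*, which was lower, where 0.881% of all tested probes were called lower, and 5 of 12 had an unadjusted p under 0.05, as did 21.8% of all tested probes. At the same 3 probes every siRNA array was below every control array, which 2.06% of all probes did, and *CD4* joined them in being below its own control in 6 of 6 siRNA arrays, which 10.8% of all probes did. The log2 fold change was negative at 10 of the 12 probes, which include 2 each of *CD8A* and *CD8B*. Their median was -0.12, against -0.00055 for all tested probes. With 1 probe per gene, 8651 of 14682 genes were negative, with a median of -0.04. These are array signals from bulk RNA, so fewer cells carrying a transcript and less of it per cell cannot be told apart.

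**Figure D1:**
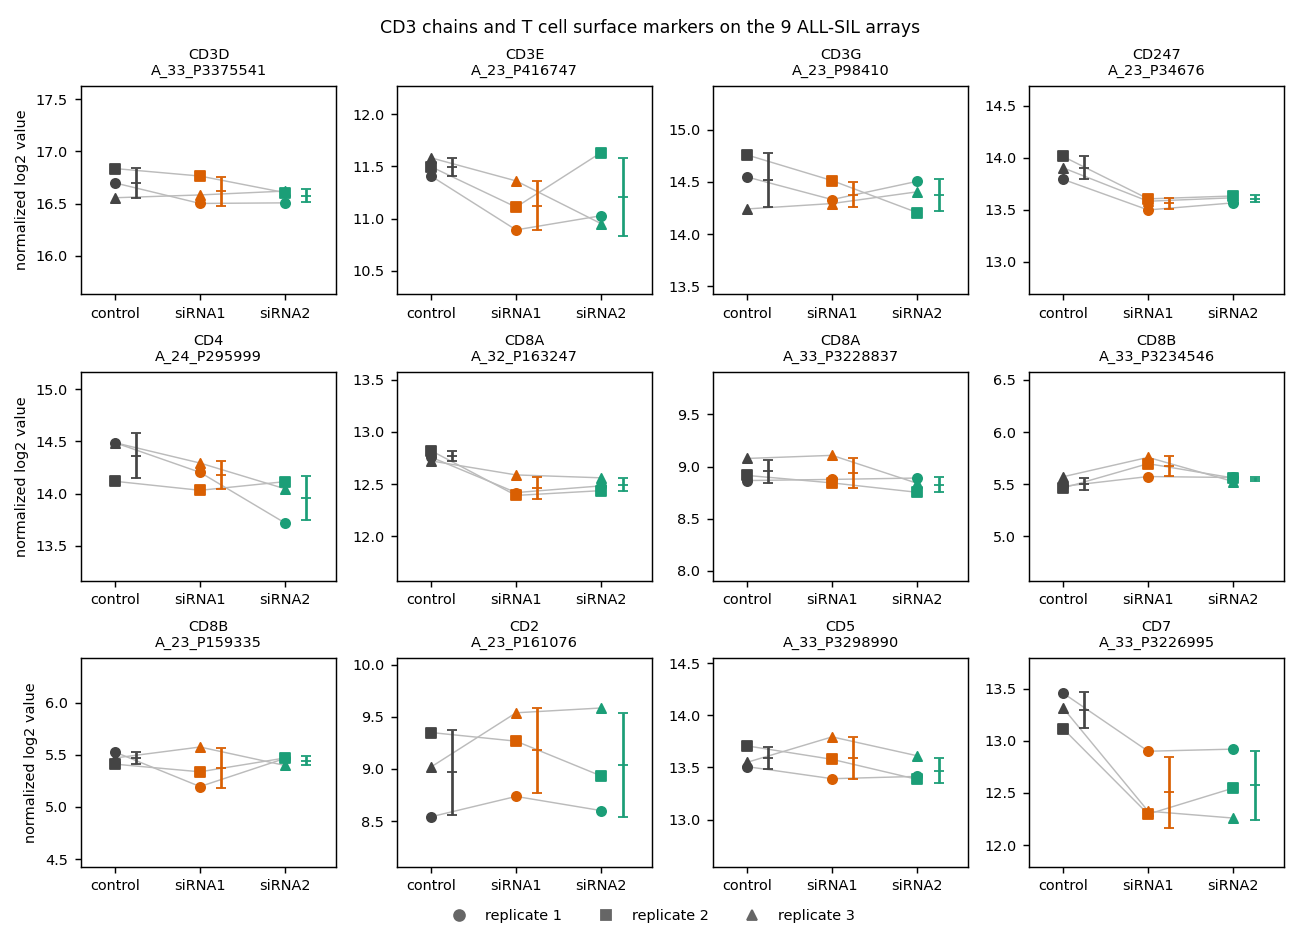
Normalized log2 value (vertical axis, spanning the same range in each panel) of the 12 tested probes on the 9 arrays. Points are single arrays with the shape marking the replicate number, thin lines join arrays of one number, and the bars show mean ± SD (n = 3). The *CD7*, *CD247* and brighter *CD8A* panels have no siRNA point as high as a control point.

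*CD7* had the largest change of the 10 genes. Its probe (A_33_P3226995, NM_006137) read 13.46, 13.12 and 13.32 on the control arrays, 12.90, 12.30 and 12.33 with siRNA1, and 12.92, 12.55 and 12.26 with siRNA2. The lowest control array, replicate 2, was above the highest siRNA array, replicate 1 of siRNA2. The control mean was 13.30 ± 0.17 (SD, n = 3), the siRNA1 mean 12.51 ± 0.34 and the siRNA2 mean 12.58 ± 0.33, with n = 3 in each. Both *PHF6* siRNA means thus lay below control by more than the replicate spread, and their difference from each other was within it.

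For both siRNAs together the *CD7* log2 fold change was -0.76 (standard error 0.18, 95% confidence interval -1.16 to -0.35), which is 59.2% of the control signal. Its adjusted p from limma was 0.586 without the block and 0.0124 with it, where the standard error was 0.11 and the interval -0.99 to -0.52. Against its own control, *CD7* differed by -0.55 in replicate 1, -0.70 in replicate 2 and -1.02 in replicate 3 as the mean of the siRNAs, so it was lower in 6 of 6 siRNA arrays and on either slide. The blocked call did not hold without replicate 1 (adjusted p = 0.0568) or without replicate 2 (0.105), while it held without replicate 3 (0.0436), and with the slide as the block the adjusted p was 0.112. A two-sided exact permutation of the 9 arrays gave p = 0.0119 and one within replicate numbers p = 0.037, each the smallest that the design allows.

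Separately, the log2 fold change of *CD7* was -0.79 with siRNA1 (limma adjusted p = 0.712, or 0.0277 with the block) and -0.72 with siRNA2 (0.819, or 0.0307 with the block). Both values rest on the same control arrays. Without the block 0 of 12 probes were called for either siRNA, where 0.00893% of all tested probes were called for siRNA1 and 0.0119% for siRNA2. With the block, 0.426% of all tested probes were called lower for siRNA1 and 0.583% for siRNA2, and *CD7* was the 1 probe of 12 in either case. The difference of siRNA2 from siRNA1 was 0.07 (95% confidence interval -0.21 to 0.34 with the block, limma adjusted p = 0.882).

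**Figure D2:**
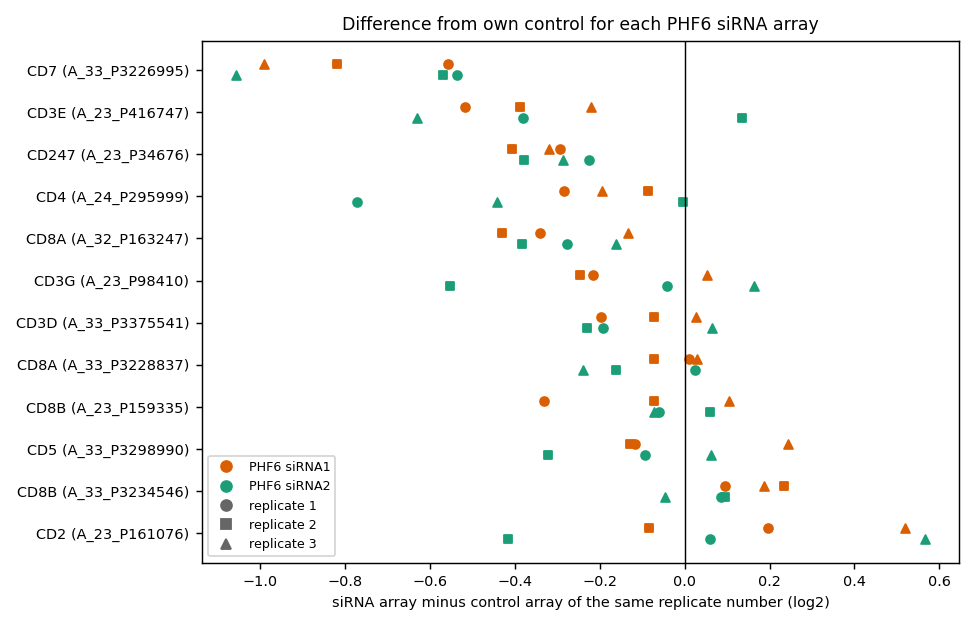
Difference of each *PHF6* siRNA array from the control with the same number, on the log2 scale (horizontal axis), for the 12 tested probes, with colour for the siRNA and shape for the replicate. All 6 *CD7* points lie between -1.06 and -0.54, and the *CD2* points spread on both sides of 0.

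Of the CD3 chains, *CD247* and *CD3E* had the lower values with *PHF6* siRNA. *CD247*, which encodes the zeta chain that carries most of the receptor's phosphorylation motifs, read 13.79, 14.01 and 13.90 on the control arrays, 13.50, 13.61 and 13.58 with siRNA1, and 13.57, 13.63 and 13.62 with siRNA2 (A_23_P34676). The 6 siRNA arrays fell within a narrow range below all controls. Its log2 fold change was -0.32 (standard error 0.11), or 80.2% of control, and it was lower by 0.33 on the first slide and 0.30 on the second. The adjusted p was 0.645 from limma and 0.0645 with the block, so *CD247* was not called. The exact permutations gave the smallest p that the design allows, 0.0119 and, within replicate numbers, 0.037, as they did for the brighter *CD8A* probe, which restates that the groups did not overlap.

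*CD3E*, the chain shared by both CD3 heterodimers, read 11.41, 11.50 and 11.58 on the control arrays, 10.89, 11.11 and 11.36 with siRNA1, and 11.03, 11.63 and 10.95 with siRNA2 (A_23_P416747). Replicate 2 of siRNA2 was the highest of the 9 arrays, whereas the other 5 siRNA arrays were below the lowest control. Its fitted log2 fold change was -0.33 (standard error 0.17, limma adjusted p = 0.725, or 0.201 with the block).

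*CD3D* and *CD3G*, the partners of CD3 epsilon, had overlapping groups. *CD3D* (A_33_P3375541) ranged from 16.56 to 16.84 on the control arrays and from 16.50 to 16.76 on the siRNA arrays, and *CD3G* (A_23_P98410) from 14.24 to 14.76 and from 14.21 to 14.51. The log2 fold changes were -0.10 (95% confidence interval -0.36 to 0.16) and -0.14 (-0.45 to 0.17), and limma called neither (adjusted p = 0.885 and 0.86). In both genes 4 of 6 siRNA arrays were below their own control, all of them replicates 1 and 2, and the replicate 3 arrays were above it. Both values depended on single control arrays. Without control replicate 2 they were -0.030 for *CD3D* and -0.019 for *CD3G*, and without control replicate 3 they were -0.17 and -0.28.

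The sequence just upstream of the start is shown for a CD3 chain whose groups did not overlap, *CD247*, and for one whose groups did, *CD3D*. Each line holds the 250 bases before the RefSeq transcription start (GRCh38.p14), read 5′ to 3′ on the strand of the gene, for *CD247* at chr1:167518530-167518779 on the minus strand and for *CD3D* at chr11:118342706-118342955 on the minus strand. Capitals mark GGAA on either strand, which reads TTCC when it lies on the other strand and is the core of sites for ETS family factors.
CD247: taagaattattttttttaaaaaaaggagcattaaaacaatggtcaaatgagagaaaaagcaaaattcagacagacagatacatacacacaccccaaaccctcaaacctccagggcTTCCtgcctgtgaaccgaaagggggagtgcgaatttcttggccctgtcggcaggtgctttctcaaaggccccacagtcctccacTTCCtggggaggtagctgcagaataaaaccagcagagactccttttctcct
CD3D: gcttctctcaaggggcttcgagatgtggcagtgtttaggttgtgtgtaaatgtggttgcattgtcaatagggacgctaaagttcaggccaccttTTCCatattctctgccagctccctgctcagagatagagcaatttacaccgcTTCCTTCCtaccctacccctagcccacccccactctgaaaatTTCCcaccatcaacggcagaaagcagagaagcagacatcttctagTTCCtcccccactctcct
GGAA matched 2 times before *CD247* and 5 times before *CD3D*, and 92.7% of 35116 RefSeq windows of the same length held at least 1 match, with a median of 3. TGTGGT, a core of RUNX sites, matched 0 times before *CD247* and 1 time before *CD3D*, with a match in 11% of windows. GATA matched 1 time in each, with a match in 45.6% of windows, and CANNTG, the E-box that E proteins bind, matched 2 times before *CD247* and 0 times before *CD3D*, with a match in 61.8%. The window of *CD2*, whose groups also overlapped, had the same counts as that of *CD247* for each of these motifs. Motifs were not counted before *CD8A*, and a link between the counts and the change was not tested. Both strands were searched for each motif. A window was found for 4 of the 10 genes, and *CD7* was not among them.

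Of the coreceptor genes, *CD4* and *CD8A* had lower means with *PHF6* siRNA, *CD8B* did not have lower means at its brighter probe, and no coreceptor probe was called. The brighter *CD8A* probe (A_32_P163247, NM_001768) read 12.76, 12.82 and 12.72 on the control arrays, 12.42, 12.39 and 12.59 with siRNA1, and 12.48, 12.44 and 12.56 with siRNA2. All 6 siRNA arrays were below all controls, with the replicate 3 arrays the closest to them. The log2 fold change was -0.29 (standard error 0.11, limma adjusted p = 0.646, or 0.0948 with the block), and it was -0.36 on the first slide and -0.15 on the second. The second *CD8A* probe (A_33_P3228837, NM_001145873), annotated to another transcript, had overlapping groups. It ranged from 8.87 to 9.08 on the control arrays and from 8.75 to 9.11 on the siRNA arrays, with a log2 fold change of -0.07 (95% confidence interval -0.32 to 0.19) and 3 of 6 siRNA arrays below their own control. The confidence intervals of the *CD8A* probes overlapped, and the difference between the probes was not tested.

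*CD4* (A_24_P295999) read 14.49, 14.12 and 14.49 on the control arrays, 14.20, 14.03 and 14.29 with siRNA1, and 13.72, 14.11 and 14.05 with siRNA2. Each siRNA array was below its own control, by the least in replicate 2 of siRNA2, and the groups overlapped because the control of replicate 2 was low. Its fitted log2 fold change was -0.30 (standard error 0.14, limma adjusted p = 0.695, or 0.186 with the block). It was -0.19 for siRNA1 and -0.41 for siRNA2, and the difference of siRNA2 from siRNA1 was -0.22 (95% confidence interval -0.58 to 0.14).

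*CD8B*, which encodes the beta chain of the CD8 heterodimer, was close to background in these cells. Its tested probes, A_33_P3234546 and A_23_P159335, had raw intensities of 47 to 73, and the third probe (A_23_P357881, NM_172102) had 25.5 to 37 and was well above background on no array. The log2 fold changes of the tested probes were 0.11 and -0.06 (limma adjusted p = 0.856 and 0.934), so that they also differed in sign. The related gene *CD8B2* is close in sequence, and which of them these low signals come from is uncertain.

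*CD2* and *CD5*, the adhesion receptor for CD58 and an inhibitory receptor of thymocytes, had no change that held in direction. *CD2* (A_23_P161076) read 8.54, 9.35 and 9.02 on the control arrays, 8.74, 9.27 and 9.54 with siRNA1, and 8.60, 8.93 and 9.58 with siRNA2. The spread between replicates exceeded that between groups, since the arrays of replicate 1 were the lowest of each group. Its log2 fold change was 0.14 (95% confidence interval -0.42 to 0.70, limma adjusted p = 0.933), with -0.06 on the first slide and 0.54 on the second. *CD5* (A_33_P3298990) ranged from 13.51 to 13.71 on the control arrays and from 13.39 to 13.79 on the siRNA arrays, with a log2 fold change of -0.06 (95% confidence interval -0.34 to 0.22, adjusted p = 0.943). Its difference was negative on the first slide and 0.15 on the second.

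**Figure D3:**
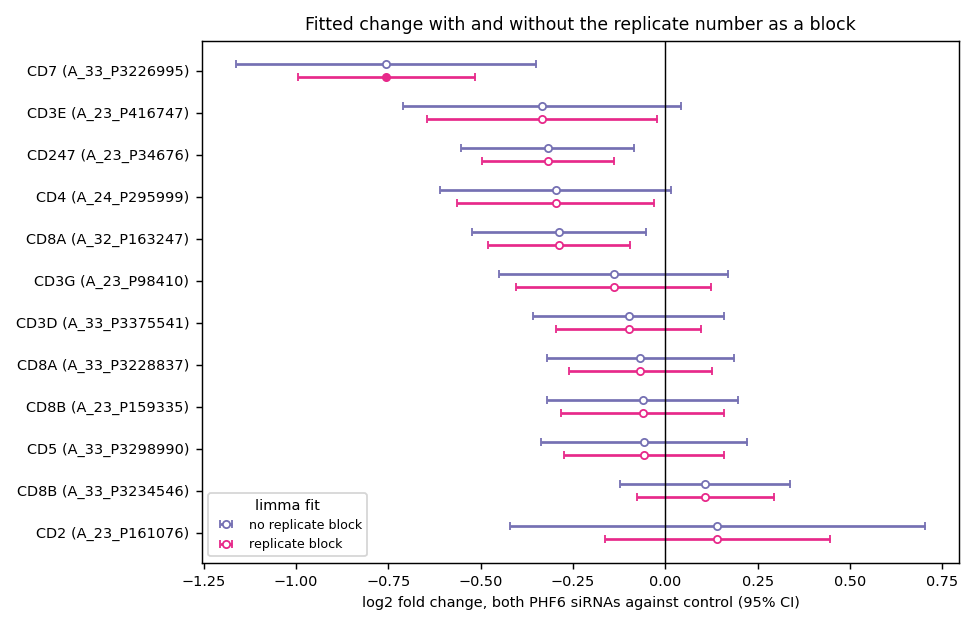
Log2 fold change of both *PHF6* siRNAs against control (horizontal axis) with its 95% confidence interval from limma for the 12 tested probes, without and with a block for the replicate number. The filled point marks the 1 estimate with an adjusted p under 0.05, *CD7* at -0.76 with the block.

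Between the siRNAs, limma called 0 of the 12 probes with or without the block, where 0.0387% and 0% of all tested probes were called. At an unadjusted p under 0.05 it was also 0 of the 12, where 9.67% of all tested probes passed with the block and 2.51% without. Over the 9 arrays the values of *CD247* and *CD8A* had the highest Pearson correlation of any 2 of the 10 genes at 0.882, followed by *CD2* and *CD5* at 0.801 and *CD3D* and *CD3G* at 0.721. The lowest was that of *CD2* and *CD7*, at -0.658. These values describe 9 arrays that share their groups and slides. Of the other 14681 genes, those whose values were most alike to *CD7* were *UMODL1-AS1* (Pearson r = 0.9745 over 9 arrays, log2 fold change -0.57), *APOBR* (0.9743, -0.68), which encodes a receptor for apolipoprotein B, and *MYO1F* (0.9722, -0.87), which encodes an unconventional myosin.

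Genes that act with the CD3 complex were then counted from lists, with 1 probe per gene. For both siRNAs limma called 0 genes of any of the 4 lists without the block, where 0.00681% of 14682 genes were called lower and 0% higher, while 1 to 4 genes of each list but that of transcription factors, which had 0, had an unadjusted p under 0.05 (6.38% of all genes). With the block, 1.21% of all genes were called lower and 1.15% higher. Of 8 genes for receptor chains and the pre-receptor, only *PTCRA* and *TRAT1* could be matched on the array. *PTCRA*, which encodes the invariant chain of the pre-T cell receptor, read 8.57, 8.96 and 8.08 on the control arrays, 7.67, 7.85 and 7.25 with siRNA1, and 8.23, 8.31 and 7.54 with siRNA2. Each siRNA array was below its own control, and the groups overlapped. The log2 fold change was -0.73 (limma adjusted p = 0.645, or 0.00837 with the block), while *TRAT1*, a transmembrane adaptor of the receptor, had 0.03. The study lists *PTCRA* among the genes significantly lowered by *PHF6* knockdown in ALL-SIL cells, at a threshold that its legend does not state.

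Of the kinases, adaptors and phosphatases that act next to CD3, 28 of 29 were tested, and *SYK* was above background on no array. With the block 1 was called, the adaptor gene *SLA2*, whose product dampens receptor signaling (log2 fold change -0.51, adjusted p = 0.0224 with the block, 0.646 without). *LCK* had a log2 fold change of -0.09, *ZAP70* of -0.04 and *LAT* of -0.01. Of the 28 genes, 22 were negative with a median of -0.08. Over all genes, 8651 of 14682 were negative with a median of -0.04.

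Among the other surface genes of T cells and thymocytes, 28 of 30 were tested, and the block gave 2 lower and 1 higher. *CD28*, the costimulatory receptor, had a log2 fold change of -0.54 (limma adjusted p = 0.0314 with the block, 0.673 without), and *CD52*, a small glycoprotein of lymphocytes, of -0.62 (0.0409 and 0.539). *CD48*, a ligand of the CD2 and SLAM family receptors, was higher by 0.75 (0.00651 and 0.654), in 6 of 6 siRNA arrays. The list had 16 negative and 12 positive values with a median of -0.03, against 8651 and 6031 over all genes with a median of -0.04. *CD1A*, a marker of cortical thymocytes, was at 0.71 and *CD1C* at 0.56, and neither passed (adjusted p = 0.0729 and 0.0531 with the block). The control mean of *CD1C*, 5.61, was near that of the brighter *CD8B* probe, 5.50, which limits its fold change. *CD1B* was at 0.465, *CD1D* at 0.13 and *CD1E* at 0.10 (limma adjusted p = 0.0894, 0.547 and 0.742 with the block).

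Of the transcription factors known to act on the CD3, CD4 or CD8 genes, 18 of 20 were tested and 0 were called with or without the block. The log2 fold change was -0.24 for *RUNX3* and 0.22 for *RUNX1*, -0.06 for *GATA3*, -0.19 for *ETS1* and 0.05 for *HES1*, and the median was -0.05.

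**Figure D4:**
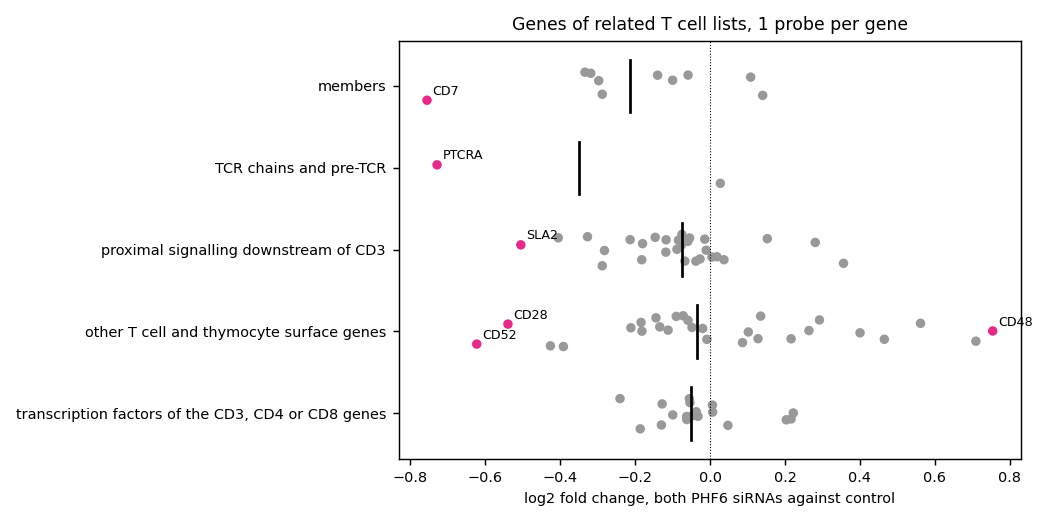
Log2 fold change of both *PHF6* siRNAs against control (horizontal axis) for the genes of each list, 1 point per gene, with the list median as a black bar. Coloured and named points have an adjusted p under 0.05 in the limma fit with the replicate block, which were *CD7*, *PTCRA*, *SLA2*, *CD28* and *CD52* below 0 and *CD48* above it.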

How the data were processed

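RNA of 9 ALL-SIL samples was measured on one-colour Agilent arrays, 3 samples for each of 3 groups given by the sample labels. The authors deposited the fluorescence intensity of each spot from Agilent Feature Extraction (version 9.1 in the submitters' processing notes, 10.5.1.1 in the file headers), with deposited flags of 0 or 1 for spots well above background, outliers and saturation. They also deposited a log2 table normalized with VSN, used as an alternative (its correlation with the values here was 0.9936 to 0.999 per array).

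Here the VSN model (7 iterations, quantile 0.9) was fitted to the median intensity without background subtraction, with outlier spots left out and repeated spots averaged. It gives a generalized log2 scale. There were no saturated spots. A probe needed a signal well above background on 3 arrays or more to be tested, which 33595 of 57176 had. Symbols came from matching accessions to RefSeq, for 25729 probes, and the brightest probe stood for a gene in the lists. The array was annotated on hg19, so no probe positions are given. Promoter windows were those of RefSeq (GRCh38.p14).

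The 3 groups were fitted together in limma 3.58.1 (R 4.3.3), p was adjusted by Benjamini-Hochberg across every tested probe, and the threshold was 0.05. Single genes were also tested by exact permutation over 84 splits of the arrays or 27 arrangements within replicate numbers. The replicate numbers come from the labels. Deviations from the group means correlated at 0.311 to 0.745 in the 9 pairs that share a number and at -0.569 to 0.134 in the 18 others, so the numbers pair the samples. The methods of the study name limma for the arrays and state no pairing there, while a legend names a paired test for RT-qPCR in these cells. The fit without the block was kept as the main one, although it leaves out the pairing by replicate number. Its standard error for *CD7* over both siRNAs was 0.18, against 0.11 with the block. Named genes are the 10 members, *PHF6*, up to 3 lowest and 3 highest called genes of each list in the blocked fit, and the 3 genes most correlated with the member of largest change. Other list genes were picked by their role, or, for the CD1 genes, *RUNX1* and *RUNX3*, after their values were seen. The members and lists were chosen with earlier results of these data known. Precision is limited by the small number of arrays. Scripts were tested on simulated data. One marker gene is not reported here.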

Additional observations from a re-analysis of the deposited data

How the results depend on the processing

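Over 28 alternatives, which varied the normalization, the filter, the block and the arrays left out, the count of called probes was the same as reported in 100 of 112 cases. In the other 12 it was 1 in place of 0, and the probe was that of *CD7*. For both siRNAs this was the replicate block, the same block without replicate 3, and the block combined with VSN on the processed signal, the 75th percentile, normexp with quantile normalization or the deposited table. These were 6 of the 8 alternatives for both siRNAs that used this block, and no alternative without it called a member probe. For siRNA1 and siRNA2 it was 1 with the block alone and with its last 2 combinations. These combinations were chosen after seeing the data. Between the siRNAs the count was 0 throughout. The block changed no other call of the 12 probes, and the adjusted p of *CD247* with a block was 0.0525 to 0.318. The fold change of *CD7* stayed negative in 28 of 28 alternatives, between -0.86 and -0.62, with an adjusted p of 0.0123 to 0.998. Only uncalled values changed sign. *CD2* was -0.074 without control replicate 1 and -0.061 with the block without replicate 3, and it ranged from -0.074 to 0.33 when single arrays were left out. *CD5* was 0.011 with normexp and quantile normalization, with or without the block, and 0.024 with the block without replicate 2, and it ranged from -0.11 to 0.00071 when single arrays were left out, the latter without control replicate 2. The cause was not tested. The *CD8B* signals lie near background, which limits their fold changes.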
